A study of Mus musculus with 8 samples.

Results

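The genes described here are 10 genes known from mast cells and basophils, namely Cpa3, Cma1, Mcpt8, Tpsb2, Gzmb, Fcer1a, Ms4a2, Fcer1g, Hdc and Il1rl1. They were chosen by name, with earlier results of these arrays in view, and their levels on these same 8 arrays are what drew attention to them. Of the 10 genes, 9 were measured by 11 probe sets that carried their symbol alone, among 12393 genes with a probe set of their own. Il1rl1, which encodes the interleukin-33 receptor ST2, had no such probe set and was not analysed here. Because the values of these genes chose them, all of their differences are given as descriptions. Counts of these genes called by a fit across all genes are printed beside the share of all genes called, and they carry no weight as tests.

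The arrays held RNA of PICALM-rescued and Picalm-knockout cells of the lines PICALM6A, PICALM6B, PICALM6D and PICALM84, with 1 array per line and group, to ask which genes respond to PICALM, an adaptor protein of clathrin-mediated endocytosis. PICALM-rescued cells were Picalm-knockout cells that carried human PICALM in a retroviral vector, and Picalm-knockout cells carried the empty MSCVneo vector. All lines came from fetal liver cells of E14 embryos labelled fit1 Picalmfit1-5R, on the B6(Cg)-TyrC-2J/J strain. The methods describe this mutation as leaving a truncated protein without function, so both groups lack functional mouse Picalm protein. All were also immortalized with a retrovirus that expresses MLL-ENL, a leukemia fusion protein, and were grown with interleukin-3 at 5 ng/ml and stem cell factor at 50 ng/ml. The retroviral PICALM may exceed normal levels, no line with its own Picalm was on the arrays, and each line was measured once per group, so differences between lines have no repeat within a group beyond the rescued and knockout arrays. No probe set was named Picalm, so the labels could not be checked against it on these arrays. The paper gives an immunoblot for PICALM of representative cells from each group. The hematopoietic origin was checked with Cd34, a stem and progenitor antigen, at log2 levels of 8.93 to 11.09 in PICALM-rescued cells and 10.15 to 12.03 in Picalm-knockout cells. Mki67, a proliferation marker, was at 12.20 to 12.52 in PICALM-rescued cells and 11.52 to 12.42 in Picalm-knockout cells.

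Mast cells and basophils store proteases, histamine and proteoglycans in granules and release them when antigen cross-links IgE on the high-affinity IgE receptor. Both lineages arise from bone marrow and fetal liver progenitors that depend on GATA2, and interleukin-3 and stem cell factor, the cytokines of these cultures, are the standard growth factors for mast cells in culture. Cpa3 encodes carboxypeptidase A3, Cma1 a chymase, Tpsb2 a tryptase and Mcpt8 a protease of mouse basophils. Fcer1a, Ms4a2 and Fcer1g encode the alpha, beta and gamma chains of the IgE receptor, and Hdc encodes histidine decarboxylase, which makes histamine.

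All values are log2 levels after robust multiarray averaging (RMA), a summary of probe brightness, and a difference of 1 is a change of 2-fold. The table held no detection calls, so low levels, such as those of Fcer1a near 4 to 5, cannot be told from background, a fold against such a level describes the table's values only, and levels of different genes are not set against each other. In bulk RNA, more cells of a type and more RNA per cell cannot be told apart. For a gene with several probe sets, the brightest stands for the gene.

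Across the 4 lines the 9 genes had a median difference, PICALM-rescued minus Picalm-knockout, of 0.77, against 0.01 over all genes. This median was 0.47 without PICALM84 and 0.73 to 1.01 without 1 of the other lines. Cpa3, Mcpt8, Tpsb2, Ms4a2 and Cma1, that is 5 of the 9, were higher in PICALM-rescued cells of all 4 lines, where 13.4% of all genes were. Only Tpsb2, 1 of the 9, had PICALM-rescued arrays that all lay above the Picalm-knockout arrays, where 2.07% of all genes did. In a limma fit that paired the arrays by line, 0 of the 9 passed the false discovery rate that the methods name (about 12%), and 0.0646% of all genes did. At an unadjusted p under 0.05, 5 of the 9 and 13.1% of all genes passed, and 0 of the 9 passed by the methods' t-test after adjustment. Nothing is read from these counts, since the genes were chosen on this contrast.

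**Figure D1:**
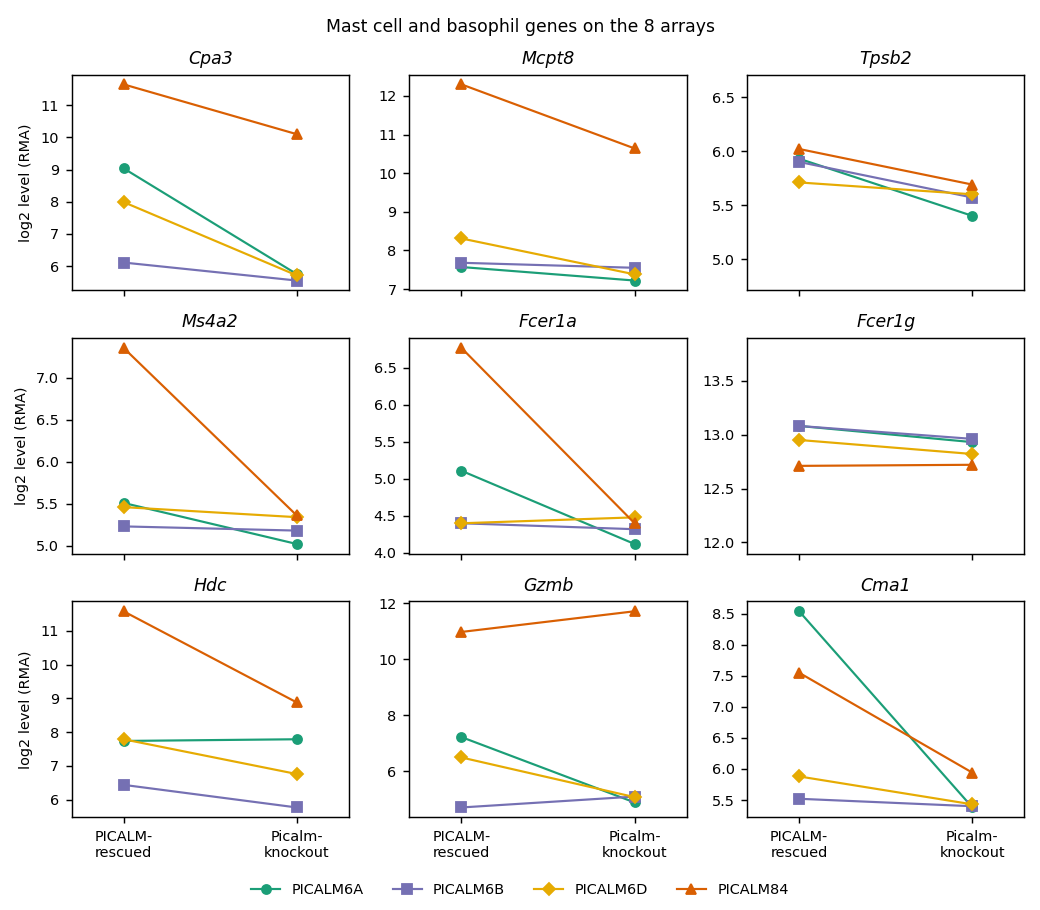
Log2 RMA level of the 9 measured genes (brightest probe set) in PICALM-rescued cells, left in each panel, and Picalm-knockout cells, right, with a line joining the arrays of 1 cell line; each panel has its own y axis. PICALM84 lies far above the other lines for Cpa3, Mcpt8 and Gzmb in both groups, and for Ms4a2 and Fcer1a only on its PICALM-rescued array.

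Of the granule proteases, Cpa3 had the largest mean difference among the 9 genes. Its level was 9.04, 6.11, 7.99 and 11.65 in PICALM-rescued cells of PICALM6A, PICALM6B, PICALM6D and PICALM84, against 5.75, 5.55, 5.71 and 10.10 in the Picalm-knockout cells of the same lines. The Picalm-knockout arrays of PICALM6A, PICALM6B and PICALM6D lay close together, and their PICALM-rescued arrays spread far apart. The difference was 1.92 ± 1.16 (SD, n = 4 lines), or 3.78-fold, and it ran over 3.29 in PICALM6A, 0.55 in PICALM6B, 2.29 in PICALM6D and 1.54 in PICALM84. Among the differences of all 12393 genes within a line, that of Cpa3 ranked 1 in PICALM6D, 4 in PICALM6A and 69 in both PICALM6B and PICALM84.

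Cma1, the chymase that cleaves angiotensin I among other substrates, was uneven across lines. It was at 8.54, 5.52, 5.88 and 7.55 in PICALM-rescued cells of PICALM6A, PICALM6B, PICALM6D and PICALM84, against 5.38, 5.40, 5.43 and 5.94 in Picalm-knockout cells. PICALM6A and PICALM84 carried the difference of 1.34 ± 1.38 (SD, n = 4 lines), with 3.16 and 1.61, and PICALM6B and PICALM6D differed by 0.12 and 0.45. Without PICALM6A the mean difference was 0.73.

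Mcpt8, the basophil protease, was at 7.57, 7.68, 8.31 and 12.302 in PICALM-rescued cells of PICALM6A, PICALM6B, PICALM6D and PICALM84, against 7.22, 7.55, 7.38 and 10.64 in Picalm-knockout cells. Both PICALM84 arrays were above all other arrays. The difference was 0.77 ± 0.69 (SD, n = 4 lines), from 0.13 in PICALM6B to 1.67 in PICALM84, and 0.47 ± 0.42 without PICALM84 (SD, n = 3 lines).

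Tpsb2, the tryptase, separated the groups by a small amount. It was at 5.93, 5.90, 5.71 and 6.02 in PICALM-rescued cells of PICALM6A, PICALM6B, PICALM6D and PICALM84, against 5.40, 5.57, 5.60 and 5.69 in Picalm-knockout cells. The lowest PICALM-rescued array thus stood just above the highest Picalm-knockout array, and the difference was 0.32 ± 0.17 (SD, n = 4 lines). A second Tpsb2 probe set differed by 0.02 ± 0.23 and was higher in 1 line, so the 2 probe sets disagree. Tpsb2 has a close copy, Tpsab1, whose probe set read 6.04 to 6.22 in PICALM-rescued cells and 6.21 to 6.27 in Picalm-knockout cells.

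Gzmb encodes granzyme B, a serine protease of cytotoxic lymphocytes that basophils and mast cells can also make, and it moved in opposite directions among the lines. Its level was 7.22, 4.70, 6.49 and 10.98 in PICALM-rescued cells of PICALM6A, PICALM6B, PICALM6D and PICALM84, against 4.88, 5.09, 5.07 and 11.72 in Picalm-knockout cells. PICALM-rescued cells were higher by 2.34 in PICALM6A and 1.42 in PICALM6D, and the differences were -0.38 in PICALM6B and -0.73 in PICALM84. The mean of 0.66 ± 1.46 (SD, n = 4 lines) was smaller than its spread, and it was 0.10 without PICALM6A and 1.12 without PICALM84.

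The alpha and beta chains of the IgE receptor followed 1 line. Fcer1a, which binds IgE, was at 5.11, 4.40, 4.40 and 6.77 in PICALM-rescued cells of PICALM6A, PICALM6B, PICALM6D and PICALM84, against 4.12, 4.32, 4.48 and 4.40 in Picalm-knockout cells. Ms4a2, the beta chain that amplifies the signal, was at 5.51, 5.23, 5.46 and 7.36 in PICALM-rescued cells, against 5.02, 5.18, 5.34 and 5.36 in Picalm-knockout cells. For both genes the PICALM-rescued array of PICALM84 stood above the other 7 arrays, and the Picalm-knockout array of PICALM84 did not stand apart.

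In PICALM84 the difference between PICALM-rescued and Picalm-knockout cells was 2.37 for Fcer1a and 2.00 for Ms4a2. Over all lines it was 0.84 ± 1.12 for Fcer1a and 0.66 ± 0.91 for Ms4a2 (SD, n = 4 lines), and without PICALM84 it was 0.33 ± 0.58 for Fcer1a and 0.22 ± 0.24 for Ms4a2 (SD, n = 3 lines). The spread between lines exceeded each of the 2 means over 4 lines.

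Fcer1g, the gamma chain, is shared with other Fc receptors and is also made by neutrophils, monocytes and natural killer cells. It was at 13.08, 13.08, 12.95 and 12.71 in PICALM-rescued cells of PICALM6A, PICALM6B, PICALM6D and PICALM84, against 12.93, 12.96, 12.82 and 12.72 in Picalm-knockout cells. Its levels spanned 12.71 to 13.08 on the 8 arrays, and both PICALM84 arrays were below the other 6. The difference was 0.10 ± 0.07 (SD, n = 4 lines).

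Hdc, the enzyme of histamine synthesis, was at 7.74, 6.44, 7.79 and 11.58 in PICALM-rescued cells of PICALM6A, PICALM6B, PICALM6D and PICALM84, against 7.79, 5.77, 6.76 and 8.88 in Picalm-knockout cells. It was level in PICALM6A, where the difference was -0.05, and higher by 0.67 in PICALM6B, 1.03 in PICALM6D and 2.70 in PICALM84. The mean difference was 1.09 ± 1.17 (SD, n = 4 lines), and 0.55 ± 0.55 without PICALM84 (SD, n = 3 lines). The second Hdc probe set gave 0.61 ± 0.95 (SD, n = 4 lines), also with its largest difference in PICALM84.

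**Figure D2:**
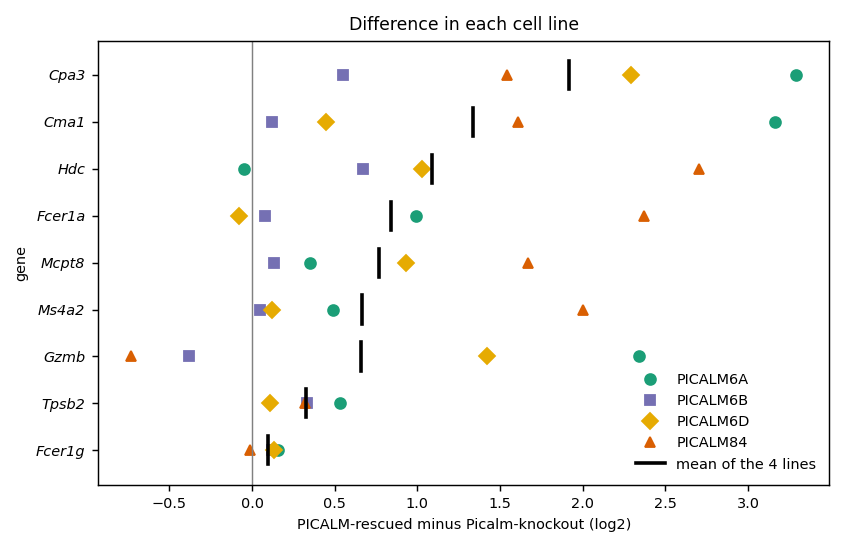
Difference in log2 level, PICALM-rescued minus Picalm-knockout (x axis), for each of the 9 genes (y axis), with 1 symbol per cell line and a bar at the mean of the 4 lines. Cpa3, Cma1 and Gzmb were highest in PICALM6A, at 3.29, 3.16 and 2.34, and Hdc, Fcer1a and Ms4a2 in PICALM84, at 2.70, 2.37 and 2.00.

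The 9 genes did not all differ most in the same line. The difference was largest in PICALM6A for 5 of them, Cpa3, Cma1, Gzmb, Tpsb2 and Fcer1g, and in PICALM84 for the other 4, Mcpt8, Ms4a2, Fcer1a and Hdc. The median difference of the 9 genes was 0.53 in PICALM6A, 0.12 in PICALM6B, 0.45 in PICALM6D and 1.61 in PICALM84, against medians over all genes between -0.01 and 0.02. A difference over 1 was found for 3, 0, 3 and 6 of the 9 genes in PICALM6A, PICALM6B, PICALM6D and PICALM84, and for 57, 14, 12 and 178 of all genes in the same lines.

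Promoters of 4 of the genes are printed here, as the 250 bases before the gene's start, because Cpa3 was higher in PICALM-rescued cells of every line, Fcer1a and Ms4a2 stood out on the same array, and Mcpt8 was high on both PICALM84 arrays. Capitals mark matches to the forms AGATAA or else AGATAG, and the forms TGATAA or else TGATAG, on either strand, which are letters that GATA factors recognize, and no 2 matches overlap. The sequences are from RefSeq, build GRCm38.p6, all on the minus strand and read 5′ to 3′, at chr3:20242182-20242431 (Cpa3), chr1:173227230-173227479 (Fcer1a), chr19:11623720-11623969 (Ms4a2) and chr14:56085198-56085447 (Mcpt8).
Cpa3: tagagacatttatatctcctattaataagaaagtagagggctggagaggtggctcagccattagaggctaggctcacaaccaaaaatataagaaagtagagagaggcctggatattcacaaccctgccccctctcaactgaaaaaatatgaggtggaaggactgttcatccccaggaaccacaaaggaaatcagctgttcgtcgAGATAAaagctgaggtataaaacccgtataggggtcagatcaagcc
Fcer1a: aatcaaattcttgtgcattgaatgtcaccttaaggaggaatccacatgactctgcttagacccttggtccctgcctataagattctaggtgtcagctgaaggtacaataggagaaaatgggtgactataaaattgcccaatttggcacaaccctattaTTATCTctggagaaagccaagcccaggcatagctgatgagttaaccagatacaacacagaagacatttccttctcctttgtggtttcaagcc
Ms4a2: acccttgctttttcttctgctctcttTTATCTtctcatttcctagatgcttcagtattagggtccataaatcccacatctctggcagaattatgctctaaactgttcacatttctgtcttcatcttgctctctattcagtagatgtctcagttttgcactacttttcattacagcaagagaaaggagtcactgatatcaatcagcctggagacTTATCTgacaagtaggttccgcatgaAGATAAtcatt
Mcpt8: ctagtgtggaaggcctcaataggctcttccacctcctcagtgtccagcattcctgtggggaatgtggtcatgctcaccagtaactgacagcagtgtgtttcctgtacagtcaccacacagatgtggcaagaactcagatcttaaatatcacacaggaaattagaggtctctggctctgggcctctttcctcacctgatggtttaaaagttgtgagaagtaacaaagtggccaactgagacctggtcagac

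The Cpa3 match begins 46 bases before the start, that of Fcer1a 92 bases before it, and those of Ms4a2 224, 37 and 11 bases before it. Mcpt8 has none of these letters in this window. Of the 8 measured genes with a promoter in the table, 5 held a match, Cpa3, Ms4a2, Fcer1a, Hdc and Cma1, and Mcpt8, Fcer1g and Gzmb did not. Among all 32851 promoters of the same length, 26.5% held one. A match describes the letters and is not a binding site.

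PICALM84 read higher than the other 3 lines for Cpa3, Mcpt8, Hdc and Gzmb in both groups, and for Ms4a2 and Fcer1a on its PICALM-rescued array. With the 2 arrays of a line averaged, the genes that limma called at the same threshold included 7 of the 9 on the higher side and Fcer1g on the lower side, beside 42.3% of all genes called in either direction, 24.5% higher and 17.8% lower. This sets 1 line against 3, with the spread of PICALM84 taken to be that of the others. Both PICALM84 arrays were above the other 6 for 4 of the 9, Cpa3, Mcpt8, Hdc and Gzmb, and for 23.9% of all genes, and they were below for 1 of the 9 and for 16.7% of all genes. The median difference of the 9 genes was 1.11, against 0.04 over all genes. Nothing is read from these counts either, since the genes were picked with this contrast in view.

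Gzmb had the widest gap, with a mean of 11.35 in PICALM84 and 5.58 ± 0.61 (SD, n = 3) in the other lines, a difference of 5.77. No fold is given for it, because 4 of the 6 other arrays read 4.70 to 5.09, levels that cannot be told from background. For Cpa3 the means were 10.88 in PICALM84 and 6.69 ± 0.80 in the other lines, an 18.2-fold difference. The Picalm-knockout arrays of those lines read 5.55 to 5.75 for Cpa3, low levels without detection calls, so this fold describes the values only. Mcpt8 was 14.5-fold higher, with 11.47 in PICALM84 and 7.62 ± 0.23 in the others.

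Hdc was 9.10-fold higher, with 10.23 in PICALM84 and 7.05 ± 0.85 in the others. Cma1 differed by 0.72. Tpsb2 differed by 0.17 on its brightest probe set and by -0.02 on the second, so its direction is not settled. On the Picalm-knockout arrays alone the difference of PICALM84 to the other lines was 6.70 for Gzmb, 4.43 for Cpa3, 3.26 for Mcpt8 and 2.11 for Hdc, but 0.18 for Ms4a2 and 0.10 for Fcer1a. On the PICALM-rescued arrays alone it was 1.96 for Ms4a2 and 2.13 for Fcer1a.

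The difference between PICALM-rescued and Picalm-knockout cells was itself compared between PICALM84 and the other lines, with limma on the line differences. It was larger in PICALM84 for Hdc by 2.15, for Fcer1a by 2.03 and for Ms4a2 by 1.79. For Gzmb the difference of differences was -1.86, with PICALM84 and PICALM6B on the negative side. Those called were 3 of the 9 genes, Hdc, Fcer1a and Ms4a2 (1 of the 9 at a threshold of 0.05), beside 7.46% of all genes called in either direction, and nothing is read from this count, since the same arrays chose the genes.

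Cma1, Mcpt8 and Gzmb belong to 1 cluster of protease and granzyme genes on chromosome 14, and the genes between them were described in the order of their starts. From Cma1 to Gzmb there are 15 such genes, of which 13 were measured, 3 of them from the 9 genes above. Of the other 10, Gzmc, a granzyme, had the largest difference of PICALM84 to the other lines, at 0.78. Among them Gzmd, Gzme, Gzmf, Gzmg, Gzmn and Mcpt1 lay between 3.15 and 5.00 on all arrays. Such levels cannot be told from background, so their values do not show these genes to be unchanged. Mcpt4, the chymase of connective tissue mast cells, was at 6.47 in PICALM-rescued cells of PICALM6A, against 5.45 in its Picalm-knockout cells, the only one of the 10 with a difference over 1 in a line. In PICALM6A, 0.46% of all genes were higher by over 1. Ctsg, the cathepsin G gene next to Mcpt8, spanned 13.94 to 14.35 on the 8 arrays.

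**Figure D3:**
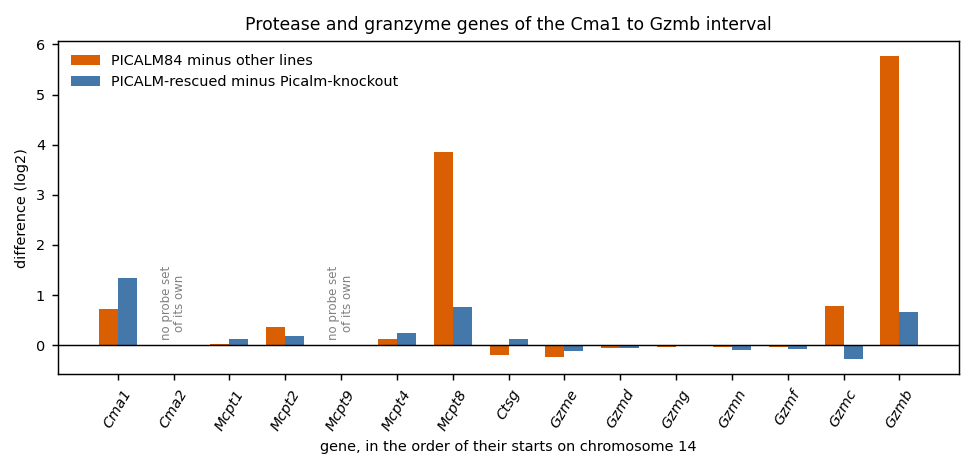
Difference in log2 level (y axis) for 13 measured protease and granzyme genes in the order of their starts on chromosome 14, for PICALM84 minus the other lines (orange) and PICALM-rescued minus Picalm-knockout (blue, mean of 4 lines); 2 genes had no probe set of their own. Mcpt8 and Gzmb stand out at 3.85 and 5.77, and every gene other than these is at 0.78 or less in the comparison of lines. Gzmd, Gzme, Gzmf, Gzmg, Gzmn and Mcpt1 read at levels that cannot be told from background.

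The other genes of mast cells and basophils came from lists of textbook members. In the comparison of PICALM-rescued with Picalm-knockout cells, limma called 0 of the 93 genes in 6 such lists, 18 had an unadjusted p under 0.05 (0.0646% and 13.1% of all genes), and the medians of the lists lay between -0.02 and 0.14. Some of these genes had 1 direction in all 4 lines without passing, as did 1659 (positive) and 1483 (negative) of all 12393 genes. The counts were 6 and 2 of 20 transcription factors, and 5 and 0 of 18 surface receptors. For 16 lipid mediator and cytokine genes they were 2 and 5, and for 11 granule matrix and amine genes 3 and 0. Of 15 IgE receptor signaling genes and of 13 proteases and granzymes, 1 was positive and 1 negative in each list. The genes named next are examples of this common pattern. Hnmt, the enzyme that inactivates histamine, differed by 0.49 ± 0.13 (SE), Il18r1, an interleukin-18 receptor chain, by 0.51 ± 0.17, Pilra, an inhibitory receptor, by 0.67 ± 0.17, Hpgds, which makes prostaglandin D2, by -0.73 ± 0.20, and Ccl3, a chemokine, by -0.78 ± 0.12 (adjusted p = 0.208 to 0.356, limma). Tph1, which makes serotonin in mast cells, was at 6.89 in PICALM-rescued cells of PICALM6A and 5.11 to 5.18 in those of the other lines, and at 5.01 to 5.30 in Picalm-knockout cells.

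In the comparison of lines, the transcription factors that direct mast cell and basophil development split. Of 20 measured, 6 were called higher in PICALM84, 5 lower and 9 neither, with a median of 0.07, where 24.5% of all genes were called higher and 17.8% lower. Gata2 was at 10.88 and 10.65 on the PICALM-rescued and Picalm-knockout arrays of PICALM84, against 7.65 to 8.30 on the other 6 arrays, a difference of 2.77 ± 0.19 (SE, adjusted p = 0.0019, limma). Tal1, a partner of GATA factors, differed by 2.66 ± 0.33 (adjusted p = 0.0083) and Gata1 by 1.81 ± 0.07 (adjusted p = 0.00059, limma).

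On the lower side in PICALM84 were Tfec, by -1.19 ± 0.05 (adjusted p = 0.0006), Cebpb, by -0.68 ± 0.06 (adjusted p = 0.0044) and Runx1, by -0.57 ± 0.14 (SE, adjusted p = 0.043, limma). Mitf, a regulator of mast cell granule genes, was not called either way. The difference between PICALM-rescued and Picalm-knockout cells was called larger in PICALM84 for 6 of the 20 factors and smaller for 0, where 7.46% of all genes were called in either direction. They were Nfil3 (1.52 ± 0.29), Tfec (1.11 ± 0.11), Runx1 (0.91 ± 0.09), Bhlhe40 (0.81 ± 0.14), Gata1 (0.71 ± 0.09) and Cebpb (0.62 ± 0.09, SE), with adjusted p of 0.02 to 0.08 by limma, and Gata2 did not pass (0.47 ± 0.17, adjusted p = 0.22).

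The surface receptors split likewise, with 7 of 18 called higher in PICALM84, 6 lower and 5 neither, and a median of 0.08, beside the 24.5% higher and 17.8% lower of all genes. Kit, the receptor for stem cell factor, was at 10.62 and 10.98 on the PICALM-rescued and Picalm-knockout arrays of PICALM84, against 9.38 to 9.85 on the other arrays, higher by 1.17 ± 0.06 (SE, adjusted p = 0.00087, limma). Ptger3, a prostaglandin E2 receptor, was higher by 3.08 ± 0.09 and Itgb7, an integrin of mast cell progenitors, by 2.03 ± 0.26. Il3ra, the alpha chain of the interleukin-3 receptor, was lower in PICALM84, with a difference of -0.995 ± 0.08, and so was Pilra, with -2.78 ± 0.11 (SE, adjusted p = 0.0031 and 0.00053, limma).

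**Figure D4:**
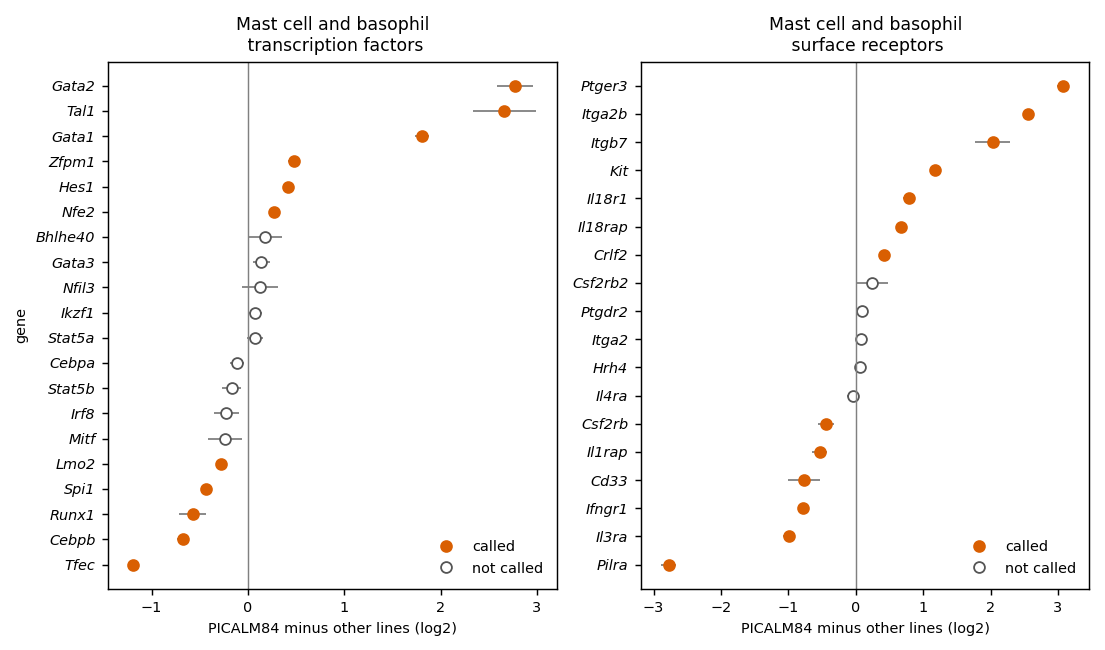
Difference in log2 level of PICALM84 to the mean of the other 3 lines (x axis, bars are standard errors from limma) for 20 transcription factors, left, and 18 surface receptors, right, of mast cells and basophils; filled points passed the false discovery rate of the methods. Gata2, Tal1 and Gata1 lead the factors at 2.77, 2.66 and 1.81, and Ptger3 the receptors at 3.08, with genes called in both directions in each list.

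The remaining mast cell lists are read against the same shares of all genes, 24.5% called higher and 17.8% lower. Of 15 genes of IgE receptor signaling, 6 were called higher and 4 lower in PICALM84, led by Fyn, a Src family kinase, at 2.31 ± 0.14 (SE, adjusted p = 0.0014, limma), while Lat, an adaptor, was at 0.86 ± 0.08. Of 11 genes of granule matrix and amines, 1 was called higher and 7 lower, and Hnmt was at 3.80 and 3.68 on the PICALM-rescued and Picalm-knockout arrays of PICALM84, against 7.08 to 8.38 on the other arrays (adjusted p = 0.0026, limma). Of 16 genes of lipid mediators and cytokines, 9 were called higher and 0 lower, led by Il6 at 3.86 ± 0.08 (SE, adjusted p = 0.0001, limma). Ccl2 and Csf1 followed at 1.87 and 1.54. Il4, a cytokine of basophils, was at 0.91 ± 0.05 (SE, adjusted p = 0.0011, limma). Its mean was 4.10 in the other lines, and it read 5.38 and 4.64 on the PICALM-rescued and Picalm-knockout arrays of PICALM84. Such low levels cannot be told from background. Il5 was called higher, by 0.20, and Il13 and Il9 were not called. Of the other 13 proteases and granzymes, 4 were called higher and 1 lower, none by over 1.

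Markers of other cells were examined in the same comparisons. The neutrophil granule list, 13 genes, had a mean level of 11.84, 11.02, 10.88 and 11.03 in PICALM-rescued cells of PICALM6A, PICALM6B, PICALM6D and PICALM84, against 10.38, 10.39, 10.57 and 9.13 in Picalm-knockout cells, and 8 of its 13 genes were higher in PICALM-rescued cells of all 4 lines, where 13.4% of all genes were. Its defining genes Camp and Ltf differed by 2.33 ± 0.54 and 1.54 ± 0.45 (SE), with adjusted p of 0.312 and 0.336 by limma, and 0 of the 13 were called (6 had an unadjusted p under 0.05, beside 13.1% of all genes). Of 11 progenitor genes, 0 were called (5 had an unadjusted p under 0.05), and the median was -0.08. In PICALM-rescued cells of all 4 lines 3 were lower, Cd34 (-1.25 ± 0.24), Sox4 (-1.32 ± 0.16) and Mycn (-1.12 ± 0.27, SE), where 1483 of all 12393 genes were. Gfi1 was higher in all 4 (0.56 ± 0.14, SE), where 13.4% of all genes were.

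Some granule genes of eosinophils and neutrophils were among those whose difference was larger in PICALM84. Of 7 eosinophil genes 3 were called higher in this comparison, and of 13 neutrophil granule genes 4 were, beside 7.46% of all genes in either direction. The defining neutrophil genes Camp and Ltf were not called in it and differed most in PICALM6A, by 4.23 and 3.09. In PICALM84 they differed by 2.74 and 0.66. Prg2, the major basic protein, was at 10.87 in PICALM-rescued cells of PICALM84, against 5.30 in its Picalm-knockout cells, and Epx, eosinophil peroxidase, at 8.66, against 4.78. Prg2 was also higher by 1.70 in PICALM-rescued cells of PICALM6D. The difference between PICALM-rescued and Picalm-knockout cells exceeded that of the other lines by 5.12 ± 0.79 for Prg2 (SE, adjusted p = 0.053), 3.72 ± 0.16 for Epx (adjusted p = 0.0048), and, among neutrophil genes, 5.07 ± 0.74 for Chil3 (adjusted p = 0.048) and 2.21 ± 0.16 for Elane (adjusted p = 0.012, limma). The mean of the 7 eosinophil genes was 7.49 in PICALM-rescued and 5.54 in Picalm-knockout cells of PICALM84, and 4.80 to 5.16 in PICALM-rescued and 4.68 to 4.83 in Picalm-knockout cells of the other lines.

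Other markers separated PICALM84 as well. All 13 interferon response genes were called higher in it, where 24.5% of all genes were, with list means of 7.28 in PICALM-rescued and 9.62 in Picalm-knockout cells of PICALM84, and 5.98 to 6.15 in PICALM-rescued and 6.03 to 6.10 in Picalm-knockout cells of the other lines. Ifit1 and Irf7, induced by interferon, were higher by 3.16 ± 0.07 and 1.87 ± 0.11 (SE). Of 9 megakaryocyte and platelet genes 3 were called higher, among them Pf4, a platelet chemokine (1.73 ± 0.07), and 2 lower, Vwf (-1.62 ± 0.40) and Fli1 (-0.81 ± 0.07, SE). Of 13 T and NK cell genes, 4 were called higher and 0 lower. Beside Gzmb, Nkg7, a granule membrane gene of cytotoxic cells, was higher by 3.78 ± 0.18 (SE, adjusted p = 0.00087, limma). Eomes was higher by 0.47 ± 0.05, Klrd1 by 0.29 ± 0.07 and Tbx21 by 0.22 ± 0.08 (SE). Klrd1 read 4.19 to 4.71 and Tbx21 4.21 to 4.73 on all arrays, levels that cannot be told from background. The T cell gene Cd3e and the perforin gene Prf1 were at -0.02 ± 0.05 and -0.07 ± 0.05 (SE), neither called. Of 9 macrophage genes, 4 were called lower, Mrc1 (-1.65 ± 0.25), Cd14 (-1.29 ± 0.23), Cd68 (-1.09 ± 0.18) and Lyz2 (-0.93 ± 0.17), and 2 higher, C1qa and C1qb, while Csf1r, the receptor for CSF1, was at -0.46 ± 0.18 (SE) and not called. The part of these other genes in the differences of the mast cell and basophil genes was not tested.

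**Figure D5:**
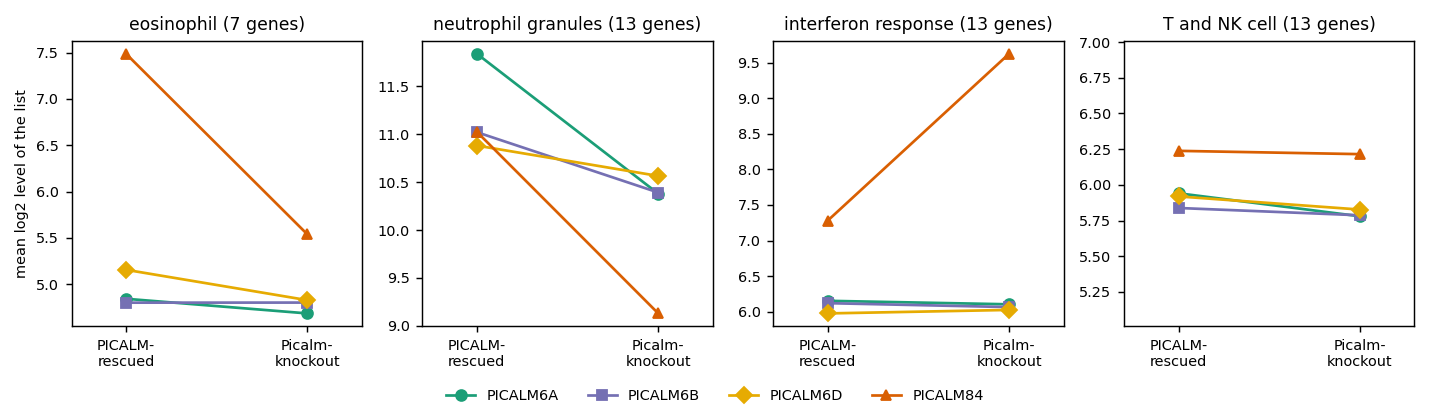
Mean log2 level of 4 gene lists of other cells (y axis, each panel its own) in PICALM-rescued cells, left in each panel, and Picalm-knockout cells, right, with a line joining the arrays of 1 cell line. The eosinophil mean reached 7.49 on the PICALM-rescued array of PICALM84, the interferon mean 9.62 on its Picalm-knockout array, and the neutrophil granule mean was higher in PICALM-rescued cells of all 4 lines.

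The levels of the 9 genes were compared with each other over the arrays, with and without PICALM84. Over 8 arrays, Fcer1a and Ms4a2 had the highest correlation (Pearson r = 0.976) and Gzmb and Cpa3 correlated at 0.933, while Fcer1g and Mcpt8 were at -0.767. Over the 6 arrays without PICALM84, Gzmb and Cpa3 were at 0.967, Cma1 and Fcer1a at 0.940, Fcer1g and Mcpt8 at 0.221, and Hdc and Mcpt8 at 0.189. Gzmb read 4.70 to 5.09 on these arrays, except the PICALM-rescued arrays of PICALM6A and PICALM6D. Fcer1a read 4.12 to 4.48, except on the PICALM-rescued array of PICALM6A (5.11), where Cma1 was at 8.54. Such low levels cannot be told from background, so the first 2 correlations rest on these few arrays. The arrays of a line share a culture history, so these values are descriptions.

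The genes most like the mean of the 9, by Pearson r over 8 arrays, were Pcdh15 (0.988), Anxa7, Dok2, Syn2, Araf, Psmd13, Hdac1, Ces2g, Slc16a6 and Acss2 (0.966). Pcdh15 was higher by 0.15 in PICALM-rescued cells and by 0.33 in PICALM84. Among these 10 genes, PICALM84 exceeded the mean of the other lines by 0.13 for Psmd13 to 1.14 for Acss2.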

How the data were processed

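The deposited table holds log2 values of 22690 probe sets that the authors normalized by RMA, and these were used as they are. Array medians were 7.32 to 7.35. After removal of 64 controls, 22626 probe sets were tested, and the platform annotation gave 20380 of them a single symbol, 691 several and 1555 none. Sample titles give the A version of the mouse array, and the methods give the full one. RNA quality and scan batches were not given in the sources used here. Arrays hold no count of molecules, so their number limits the precision. The p-values of PICALM-rescued against Picalm-knockout cells measure only the spread between these 4 lines. Where PICALM84 was set against the other lines, p-values measure only the spread among those 3 lines.

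Tests used limma 3.58.1 (lmFit, eBayes) under R 4.3.3 (statmod 1.5.0). They were two-sided, p-values were adjusted by Benjamini and Hochberg's method across every probe set, and the threshold was the false discovery rate named in the methods (about 12%), which used SAM. The 3 fits were PICALM-rescued against Picalm-knockout with the line as a block, PICALM84 against the other lines on line means, and the difference between the lines in the effect of PICALM. The replicate block rests on the shared line of each pair of arrays. Within pairs, deviations from group means had correlations of 0.623 to 0.811, and for all 8 arrays the best match was the partner from the same line. Each fit was tested on simulated data.

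The genes and lists were chosen with earlier results of these data known. All genes of the 10 with a probe set of their own were to be named, with at most 6 called genes of each other list or, where 0 were called, 4 with the largest difference in 1 direction, the 10 most similar genes, and 12 defining markers. The text names fewer list members than this allows, and Tph1, Mcpt4, Mitf, Il5, Il13 and Il9 were named after their values were seen. Alternatives were other normalizations, a filter on dim probe sets, other variance settings and array weights, the mean over probe sets, the methods' t-test, a threshold of 0.05, fits without the block and fits without each line.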

Additional observations from a re-analysis of the deposited data

Results flagged for a closer look

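Among the 33 groups of 4 values examined for the probe sets of the mast cell and basophil genes, 6 held 1 value far from the other 3 for the size of the group. All 6 were levels on arrays of PICALM84. Chance marks about 1 in 20 such groups, but the genes were chosen with PICALM84 in view and the groups are not independent, so the count is a description. On the PICALM-rescued array of PICALM84 these were Mcpt8 at 12.302 and Ms4a2 at 7.359. On its Picalm-knockout array they were Cpa3 at 10.105, Mcpt8 at 10.637, Gzmb at 11.715 and Cma1 at 5.935.

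The difference between PICALM-rescued and Picalm-knockout cells was larger in PICALM84 than the mean of the other lines for Ms4a2 by 1.79, for Fcer1a by 2.03 and for Hdc by 2.15, in limma on the line differences, on the arrays that chose these genes. PICALM84 is 1 line, so a feature of the line and a feature of its 2 cultures cannot be told apart.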

How the results depend on the processing

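Each gene of the 9 kept its direction in PICALM-rescued against Picalm-knockout cells and in PICALM84 against the other lines under every alternative that held it. Tpsb2, Ms4a2, Fcer1a and Cma1 were absent from the fit without dim probe sets. The second Tpsb2 probe set, at -0.02 for PICALM84 against the other lines, was not run alone as an alternative. For the difference in effect, Cpa3, Tpsb2 and Cma1 changed sign in at least 1 alternative. Between PICALM-rescued and Picalm-knockout cells, 8 genes of all were called with the line as a block and 0 without this replicate block; the methods' t-test gave 0 (658 at an unadjusted p under 0.05, beside 1619 in limma), the mean over probe sets 3, a threshold of 0.05 gave 1, a variance trend 51 and array weights 60. Leaving out a line gave 0 to 27, the 27 without PICALM84, and 0 of the 9 genes were called in any of these. For PICALM84 against the other lines, 5239 genes were called, 2936 on PICALM-rescued arrays alone and 3408 at a threshold of 0.05. Of the 9 genes 8 were called, 4 on Picalm-knockout arrays alone, and 5 of the 5 left without the dimmest 40% of probe sets. Their median of 1.11 moved to 2.13 on PICALM-rescued arrays alone and 3.85 without the dim probe sets. For the difference in effect, 925 genes were called, 309 at a threshold of 0.05 and 478 to 729 without 1 of the other lines, the 478 without PICALM6B. Of the 9 genes 3 were called, and 1 with a variance trend or at a threshold of 0.05. Their median of 0.37 was -0.15 without the dim probe sets and -0.027 to 1.134 without 1 line (1.134 without PICALM6A, 0.003 without PICALM6B, -0.027 without PICALM6D). The cause of these changes was not tested. Without detection calls, low levels have no stated limit.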
